A study of Bos taurus with 56 samples.

Results

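The fatty acid and acyl-CoA binding proteins described here are 7 genes of the 31903 in the oviduct read count table: the cytosolic carriers FABP3, FABP4, FABP5, FABP6 and FABP7, the acyl-CoA binding protein DBI and the membrane receptor CD36. They were chosen by gene symbol as a family, with their read levels over the 12 conditions of these same libraries already in view, and all 7 symbols were found in the table. The choice set no threshold on a value. Because the genes were selected on the measurements that are described, the differences between conditions below describe these libraries, and their p-values are not independent evidence. FABP3 was high in the isthmus on the side of the corpus luteum (CL), and FABP5 followed the region of the oviduct. DBI was higher on the side of the CL in both regions, and on that side also higher in the isthmus. CD36 was low with 1 cow far above the others, and FABP4, FABP6 and FABP7 were at or near 0 counts.

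Epithelial cells were scraped from the ampulla and the isthmus of the oviducts ipsilateral and contralateral to the CL of Holstein heifers and cows, and stranded RNA libraries were sequenced. All animals were slaughtered on Day 3 after an induced estrus, when the isthmus holds the early embryo of a pregnant animal. The 5 heifers were nulliparous, the 5 non-lactating cows were never milked after calving, and the 4 lactating cows were milked, and both groups of cows were at 60 days post-partum. This gave 56 libraries from 14 animals, 1 per animal and tissue, in 12 conditions of 3 metabolic groups, 2 regions and 2 sides. Parity and the post-partum state differ between heifers and cows and cannot be told apart in these groups. The contralateral oviduct of the same animal is the reference for the side of the CL, so an ovulated oocyte in the ipsilateral oviduct and the CL cannot be told apart either.

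Fatty acid binding proteins are small cytosolic proteins that bind long-chain fatty acids and other lipids, which dissolve poorly in water, and carry them between membranes, organelles and the nucleus. Fatty acids enter cells partly through membrane proteins such as CD36, are joined to coenzyme A by acyl-CoA synthetases, and are then bound as acyl-CoA esters by DBI before they are stored, oxidised or built into membranes. The oviduct epithelium consists of secretory and ciliated cells, and its secretions form the fluid in which the oocyte and the early embryo are held.

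The libraries held 1901454 to 6836850 counts on genes (median 4931502.5). The epithelial markers EPCAM, KRT8, KRT18, CDH1 and KRT19 and the 8 ciliated cell markers were present in every library, and OVGP1, the main secreted oviduct glycoprotein, ranged from 37.7 to 36200 CPM. The 5 markers of adipocytes, which express FABP4 and CD36, summed to 0 to 5.88 CPM. ADIPOQ was at 0 in 52, LEP in 55 and CIDEC in 48 of the 56 libraries, while PLIN1 was at 0 in 1 (median 1.71, highest 4.32 CPM) and ADRB3 in 22 (highest 3.46 CPM). In the ipsilateral ampulla, 4 libraries did not match their animal: the libraries numbered for non-lactating cow B and for heifer B were each closer to the other animal, and 1 library of each cow group carried the number of a cow of the other group. The profiles of these last libraries were closest to a cow of their own labelled group, at r = 0.7003 (non-lactating) and 0.8502 (lactating) over 200 genes. In the isthmus, the contralateral library of heifer C stood apart. On a scale where 0 is the contralateral and 1 the ipsilateral mean of the heifers, over 707 genes called between the sides in the isthmus of non-lactating cows, it lay at 0.489, against -0.315 to 0.22 for the other contralateral heifer libraries and 0.533 to 1.29 for the ipsilateral ones. Where a fold change or a within-animal count of the binding proteins rests on the mismatched libraries, or a fold change of FABP3 or DBI in the isthmus on the library of heifer C, the value without them follows. The choice to leave out the library of heifer C was made after seeing the data. The ipsilateral library of heifer D, at 0.533, lay close to that of heifer C and was kept. The other ipsilateral heifer libraries lay at 0.825 to 1.29. Leaving out only the library of heifer C raised the side effects of FABP3 and DBI in the isthmus.

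Levels are given in CPM, a gene's read count divided by the TMM-adjusted size of its library, and the depth sets a floor of detection of 3 counts, or 0.445 to 1.55 CPM by library. Genes are called different at an adjusted p under 0.05 by the quasi-likelihood test of edgeR, with the Benjamini-Hochberg method over all genes tested. The standard error beside a log2 fold change is derived from that fold change and the statistic of the same test. The libraries of a condition come from separate animals, so between metabolic groups p-values measure the spread between these animals. The main fits of sides and regions hold libraries of the same animals without an animal term. Their p-values do not use this pairing and treat these libraries as independent. Fits with the animal number as a replicate block are given as alternatives. CPM is not scaled by transcript length, so levels are compared within a gene and not between genes. Overlap between groups was read for the members only, so the share of all genes without overlap is not known. These are bulk epithelial samples, so fewer cells of a type and less RNA per cell cannot be told apart.

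**Figure D1:**
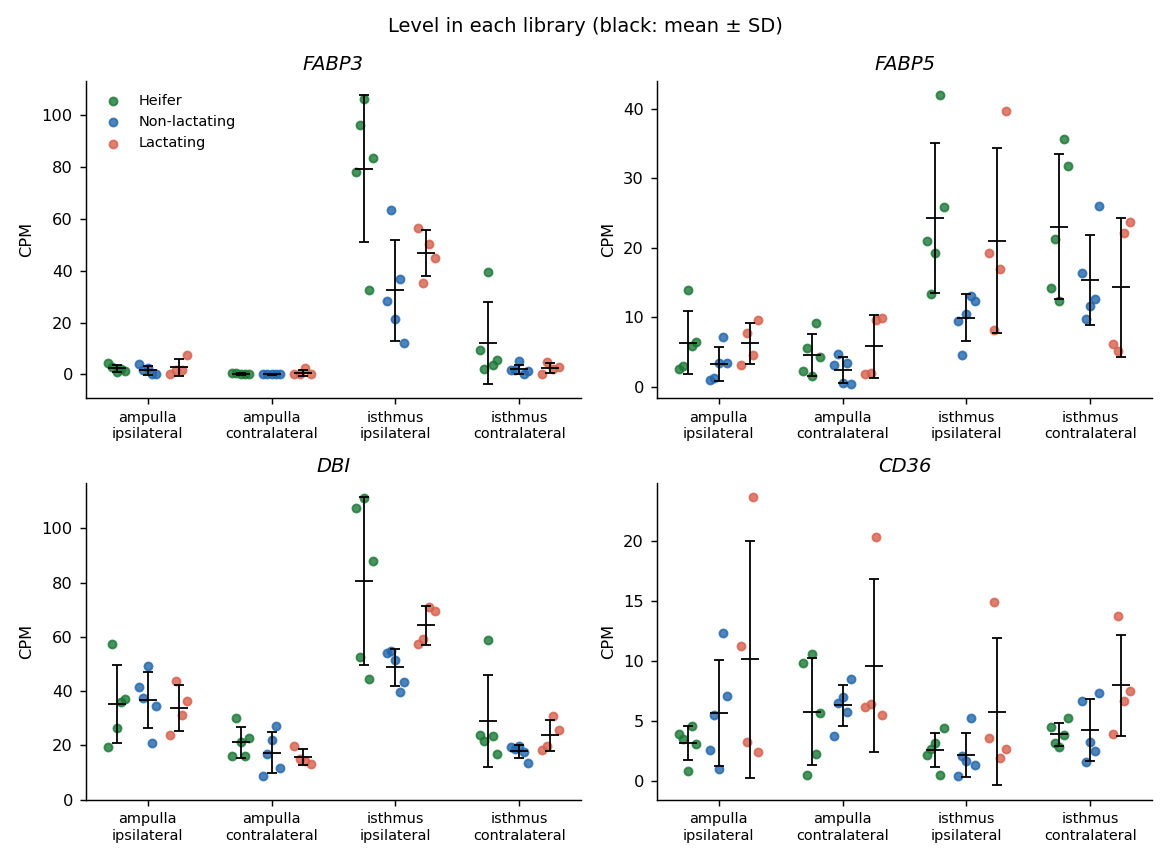
CPM (linear axis) of FABP3, FABP5, DBI and CD36 in each of the 56 libraries by tissue, coloured by metabolic group, with black marks for the mean ± SD of the 4 or 5 libraries of a condition. FABP3 in the ipsilateral isthmus lies between 12.1 and 106.1 CPM and does not overlap the ipsilateral ampulla, and the 4 CD36 values of lactating cow A lie above all others of their tissue.

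FABP3, the heart-type carrier that delivers long-chain fatty acids to oxidation in muscle, was highest in the ipsilateral isthmus in every animal. In heifers A to E its level there was 83.4, 96.2, 106.1, 32.6 and 78.1 CPM, against 5.53, 9.33, 39.7, 3.83 and 2.16 CPM in the contralateral isthmus. All 5 heifers had more on the ipsilateral side, and only the contralateral library of heifer C reached into the ipsilateral range. The log2 fold change in heifers was 2.63 ± 0.606 (SE, adjusted p = 0.0196, edgeR's quasi-likelihood test), and 4.03 without that library (adjusted p = 0.00105).

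In non-lactating cows A to E, FABP3 was at 21.5, 28.2, 36.8, 63.4 and 12.1 CPM in the ipsilateral isthmus and at 0, 1.55, 1.31, 5.03 and 1.66 CPM in the contralateral isthmus. The sides did not overlap. Here FABP3 had a log2 fold change of 4.13 ± 0.622 (SE, adjusted p = 0.00427, edgeR's quasi-likelihood test). In lactating cows A to D the values were 35.4, 50.3, 56.4 and 45.1 CPM on the ipsilateral side and 4.79, 2.28, 0.214 and 2.82 CPM on the contralateral side, again without overlap. In these cows FABP3 had a log2 fold change of 4.19 ± 0.482 (SE, adjusted p = 0.0104, edgeR's quasi-likelihood test).

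Over the 14 animals, FABP3 in the isthmus was higher on the ipsilateral side in 14 of 14, with a log2 fold change of 3.45 ± 0.393 (SE, adjusted p = 4.31e-07, edgeR's quasi-likelihood test, rank 44 of 15031 genes by p). Its mean was 53.2 ± 28.7 CPM ipsilaterally and 5.73 ± 10.1 CPM contralaterally (SD, n = 14). Without the contralateral isthmus library of heifer C the log2 fold change was 4.10 (adjusted p = 1.12e-09). The call in heifers was lost without heifer A, B or E, at adjusted p-values of 0.0819, 0.0785 and 0.0857, and that in lactating cows without cow B or D, at 0.19 and 0.169. In those fits the log2 fold change stayed between 2.36 and 4.26. With all animals and the animal number as a replicate block, FABP3 was at 3.04 in heifers (adjusted p = 0.00147, edgeR's quasi-likelihood test). In that setting it was at 4.199 in non-lactating cows (adjusted p = 0.000437), 4.199 in lactating cows (adjusted p = 0.00249) and 3.69 over all groups (adjusted p = 6.71e-08).

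In the ampulla, FABP3 was low on both sides. Ipsilaterally it ranged from 0 to 7.34 CPM (median 1.82, 2 libraries at 0), and contralaterally from 0 to 2.42 CPM, with 10 of 14 libraries at 0 and 1 above the floor. In the heifers the sides did not overlap, with 1.009 to 4.37 CPM against 0 to 0.501 CPM. Between the sides of the ampulla, FABP3 passed the filter on low counts only in the fit over all 3 groups. It did so through the ipsilateral libraries, where it is the higher. Its fitted log2 fold change there was 3.10 ± 0.709 (SE, adjusted p = 0.00988, edgeR's quasi-likelihood test), and 3.00 without the 4 mismatched libraries (adjusted p = 0.0274). By animal number it was higher ipsilaterally in 11 of 14 animals (8 of 10 without the mismatched libraries). This fold rests on 145 counts on the ipsilateral and 20 on the contralateral side, 14 of the latter in lactating cow A, so its size is poorly fixed and the call is given as a description only. DESeq2 gave FABP3 no adjusted p in this comparison.

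Between the regions the isthmus had more FABP3 than the ampulla in 14 of 14 animal numbers ipsilaterally (10 of 10 without the mismatched libraries) and in 13 of 14 animals contralaterally. Its log2 fold change was 4.53 ± 0.352 on the ipsilateral side (SE, adjusted p = 1.19e-11, edgeR's quasi-likelihood test) and 4.07 ± 0.755 on the contralateral side (adjusted p = 5.37e-05). The contralateral fold rests on 332 counts in the isthmus and 20 in the ampulla, so its size is poorly fixed. On that side FABP3 passed the filter on low counts through the isthmus libraries, and the call is given as a description only. Without the 4 mismatched libraries the ipsilateral value was 4.71 (adjusted p = 4.43e-10), and without the library of heifer C the contralateral value was 3.50 (adjusted p = 0.000134). The median levels therefore ran from the ipsilateral isthmus (47.7 CPM) through the contralateral isthmus (2.55 CPM) and the ipsilateral ampulla (1.82 CPM) to the contralateral ampulla (0 CPM), and the ranges of the middle pair overlapped.

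FABP5, the epidermal-type carrier that also shuttles lipids to nuclear receptors, had at least 2 counts in every library and followed the region. Over the 14 animals it ranged from 4.58 to 41.9 CPM (median 15.2) in the ipsilateral isthmus and from 5.19 to 35.7 CPM (median 15.3) in the contralateral isthmus. In the ampulla it ranged from 0.986 to 13.9 CPM (median 4.04) ipsilaterally and from 0.488 to 9.95 CPM (median 3.31) contralaterally. The ranges of the regions overlapped, yet by animal number FABP5 was higher in the isthmus in 14 of 14 on the ipsilateral side (10 of 10 without the mismatched libraries) and in 13 of 14 on the contralateral side.

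The log2 fold change of FABP5 between isthmus and ampulla was 1.73 ± 0.275 ipsilaterally (SE, adjusted p = 5.12e-06, edgeR's quasi-likelihood test) and 2.08 ± 0.341 contralaterally (adjusted p = 9.31e-06). Without the 4 mismatched libraries the ipsilateral value was 1.79 (adjusted p = 1.16e-05). Between the sides it was not called in either region. Over all groups its log2 fold change was -0.04 ± 0.263 in the isthmus (adjusted p = 0.926) and 0.32 ± 0.356 in the ampulla (adjusted p = 0.693), or 0.29 there without the mismatched libraries (adjusted p = 0.766). FABP5 was higher ipsilaterally in 5 of 14 animals in the isthmus and, by animal number, in 10 of 14 in the ampulla (7 of 10 without the mismatched libraries). Animals differed widely: heifer D had the highest heifer level in all 4 tissues, at 13.9 and 9.16 CPM in the ampulla and 41.9 and 35.7 CPM in the isthmus (ipsilateral first).

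FABP4, the adipocyte carrier, FABP6, the ileal bile acid carrier, and FABP7, the brain-type carrier, could not be tested in any of the 25 comparisons. FABP4 had 8 counts in all, 4 in the ipsilateral isthmus library of non-lactating cow C (0.593 CPM) and 4 in the contralateral isthmus library of non-lactating cow E (0.95 CPM). FABP6 had 2 counts, both in 1 library, and FABP7 had 4 counts in 3 libraries. In every other library these genes were at 0, which allows up to the floor of 0.445 to 1.55 CPM. In the order of RefSeq genes in the ARS-UCD2.0 assembly, which is not the build of the counts, FABP5 and FABP4 lie in 1 run with PMP2, FABP9 and FABP12 between and beside them. FABP9 had 0 counts in the 56 libraries. Elsewhere in the family, the liver-type FABP1 had 1 count and the intestinal FABP2 had 0.

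DBI, which binds acyl-CoA esters in the cytosol and also gives rise to a secreted peptide, was higher on the ipsilateral side in 14 of 14 animals in the isthmus and, by animal number, in 14 of 14 in the ampulla (10 of 10 without the mismatched libraries). In the isthmus of heifers A to E it was at 88.0, 52.4, 111.3, 44.5 and 107.7 CPM ipsilaterally and at 16.9, 24.0, 59.0, 23.6 and 21.6 CPM contralaterally. As for FABP3, only the contralateral library of heifer C reached into the ipsilateral range.

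In non-lactating cows A to E the ipsilateral isthmus held 51.4, 54.1, 39.9, 55.0 and 43.5 CPM of DBI and the contralateral isthmus 17.5, 18.6, 13.7, 19.9 and 19.5 CPM. In lactating cows A to D the values were 59.2, 71.2, 57.2 and 69.5 CPM against 19.8, 30.7, 18.4 and 25.8 CPM. In both groups of cows the sides did not overlap.

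DBI was called between the sides of the isthmus in each metabolic group. Its log2 fold change was 1.43 ± 0.348 in heifers (SE, adjusted p = 0.0239), or 1.88 without the contralateral library of heifer C (adjusted p = 0.00314), 1.45 ± 0.148 in non-lactating cows (adjusted p = 0.00113) and 1.44 ± 0.173 in lactating cows (adjusted p = 0.0122, edgeR's quasi-likelihood test). In non-lactating cows DBI had the lowest p of the 13869 genes tested, and over all groups the log2 fold change was 1.44 ± 0.153 (adjusted p = 1.53e-07), or 1.59 without the library of heifer C (adjusted p = 1.63e-09). The call in lactating cows was lost without any 1 of the 4 cows (adjusted p = 0.0727 to 0.169), and that in heifers without heifer A, B or E (0.0988, 0.0586 and 0.136), with log2 fold changes from 1.22 to 1.55. Over all 5 fits with 1 heifer left out, the heifer value ranged from 1.22 to 1.74. With all animals and the animal number as a replicate block, DBI was at 1.48 in heifers (adjusted p = 0.00306, edgeR's quasi-likelihood test). In the same setting it was at 1.44 in non-lactating cows (adjusted p = 0.000379) and 1.46 in lactating cows (adjusted p = 0.00138).

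In the ampulla DBI ranged from 19.3 to 57.4 CPM (median 36.2) ipsilaterally and from 8.91 to 30.03 CPM (median 16.6) contralaterally. The ranges overlapped in heifers and in non-lactating cows and not in lactating cows. Over all groups the log2 fold change was 0.96 ± 0.166 (SE, adjusted p = 0.00112, edgeR's quasi-likelihood test), and 1.015 without the mismatched libraries (adjusted p = 0.00134). Within single groups it was not called, at 0.73 ± 0.272 in heifers (adjusted p = 0.443), 1.09 ± 0.287 in non-lactating cows (adjusted p = 0.181) and 1.11 ± 0.232 in lactating cows (adjusted p = 0.999). Without the mismatched libraries these values were 0.88, 1.22 and 0.95, also not called (adjusted p = 0.519, 0.236 and 1). With the animal number as a replicate block, DBI was called in the ampulla of non-lactating cows, at a log2 fold change of 1.503 (adjusted p = 0.00675), or 1.28 without the mismatched libraries (adjusted p = 0.0311). These fits called 148 of 13726 and 57 of 14148 genes.

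Between the regions, DBI was higher in the isthmus in 13 of 14 animal numbers on the ipsilateral side (10 of 10 without the mismatched libraries), with a log2 fold change of 0.81 ± 0.161 (SE, adjusted p = 0.000103, edgeR's quasi-likelihood test), or 0.79 without the 4 mismatched libraries (adjusted p = 0.00029). On the contralateral side it was higher in 9 of 14 and was not called (0.35 ± 0.175, adjusted p = 0.108), although it was called without non-lactating cow C (0.47, adjusted p = 0.026) and was at 0.19 without the library of heifer C (adjusted p = 0.342). The median levels of DBI ran from the ipsilateral isthmus (56.1 CPM) through the ipsilateral ampulla (36.2 CPM) and the contralateral isthmus (19.8 CPM) to the contralateral ampulla (16.6 CPM), and the last pair was not called different.

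**Figure D2:**
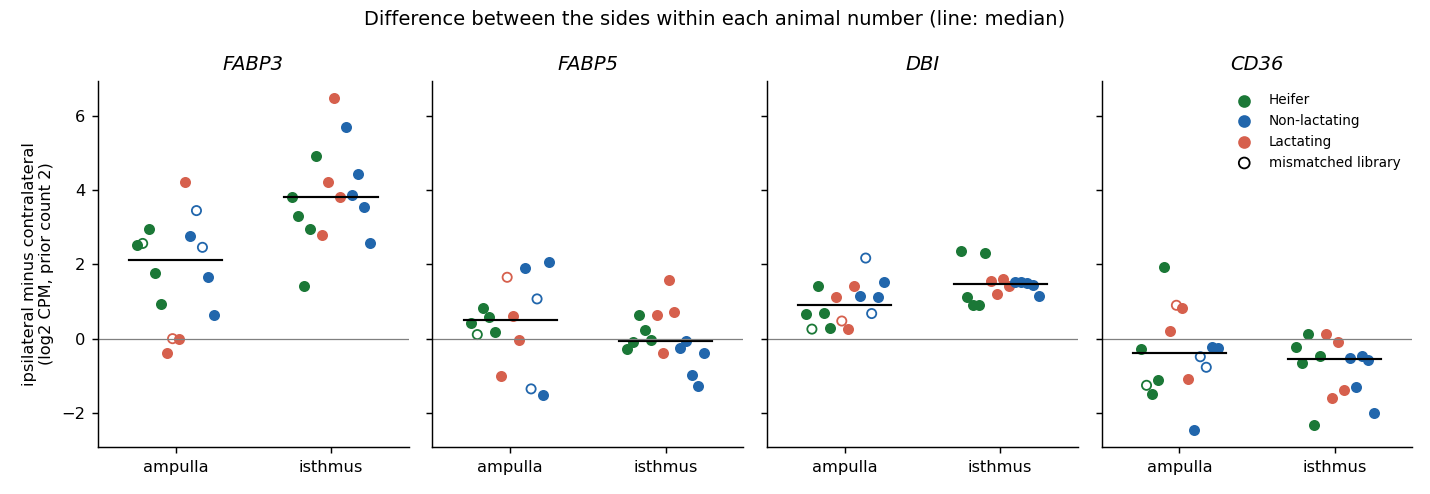
Ipsilateral minus contralateral difference in log2 CPM (prior count 2) for each of the 14 animal numbers, in the ampulla and in the isthmus, coloured by metabolic group, with a line at the median and open circles where a library did not match its animal. FABP3 and DBI lie above 0 in 14 of 14 animals in the isthmus, FABP5 is spread around 0, and CD36 is above 0 in 2 of 14.

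CD36, a membrane receptor that takes up long-chain fatty acids and oxidised lipoproteins and is also found on macrophages, endothelial cells and adipocytes, was counted in every library, at 2 to 135 counts. In the isthmus it ranged from 0.379 to 14.9 CPM (median 2.39) ipsilaterally and from 1.55 to 13.8 CPM (median 4.15) contralaterally. In the ampulla it ranged from 0.808 to 23.7 CPM (median 3.67) ipsilaterally and from 0.501 to 20.4 CPM (median 6.29) contralaterally. The ranges overlapped between sides and between regions.

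CD36 had the opposite sign to FABP3 and DBI between the sides of the isthmus. It was lower on the ipsilateral side in 12 of 14 animals, with a log2 fold change of -0.70 ± 0.336 (SE) that was not called (adjusted p = 0.123, edgeR's quasi-likelihood test). It was called in the fit with the animal number as a replicate block, at -0.82 (adjusted p = 0.00968), and it was also called without lactating cow A (-0.89, adjusted p = 0.0299). Between isthmus and ampulla on the ipsilateral side the log2 fold change of CD36 was -0.87 ± 0.414 (adjusted p = 0.0816), and it was called with the replicate block (-0.81, adjusted p = 0.015), without lactating cow A (-0.92, adjusted p = 0.0454) and without non-lactating cow C (-1.11, adjusted p = 0.0338), but not without the 4 mismatched libraries (-0.79, adjusted p = 0.141). In the ampulla between the sides (-0.32 ± 0.38, adjusted p = 0.714, and -0.37 without the mismatched libraries, adjusted p = 0.726) and contralaterally between the regions (-0.46 ± 0.304, adjusted p = 0.229) it was not called.

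Lactating cow A had the highest CD36 level of all 14 libraries in each of the 4 tissues. Its CD36 was at 23.7 CPM in the ipsilateral ampulla, 20.4 CPM in the contralateral ampulla, 14.9 CPM in the ipsilateral isthmus and 13.8 CPM in the contralateral isthmus. The highest of the other 13 libraries was at 12.3, 10.6, 5.19 and 7.52 CPM in the same order. The summed level of 8 macrophage markers was also highest in this cow in each tissue, at 244.1, 372.5, 234.7 and 163.1 CPM, where the other 13 libraries reached 77.6, 103.8, 92.4 and 91.1 CPM.

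CD36 was averaged as log2 CPM over the 3 tissues without mismatched libraries, a choice of tissues made after seeing the data. The marker sums were averaged in CPM over the same tissues and then put on a log2 scale. Over the 14 animals, CD36 and the macrophage sum, both centred on the metabolic group, correlated at r = 0.602 (permutation p = 0.0608, adjusted p = 0.335) and rho = 0.451 (permutation p = 0.132, adjusted p = 0.509). Without the 2 animals farthest from the median of the macrophage sum r was 0.292, so the relation rests on those animals. With the endothelial sum r was -0.0513 (permutation p = 0.885) and with the adipocyte sum -0.04 (permutation p = 0.881), with rho of -0.174 and 0.103 and with r of -0.194 and 0.0839 without the 2 farthest animals. These p-values were adjusted over 15 relations, 12 of them among FABP3, FABP5, DBI and CD36 within each side of the isthmus, and none of the 15 passed an adjusted p of 0.05. The part of macrophages in the CD36 level was not tested.

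**Figure D3:**
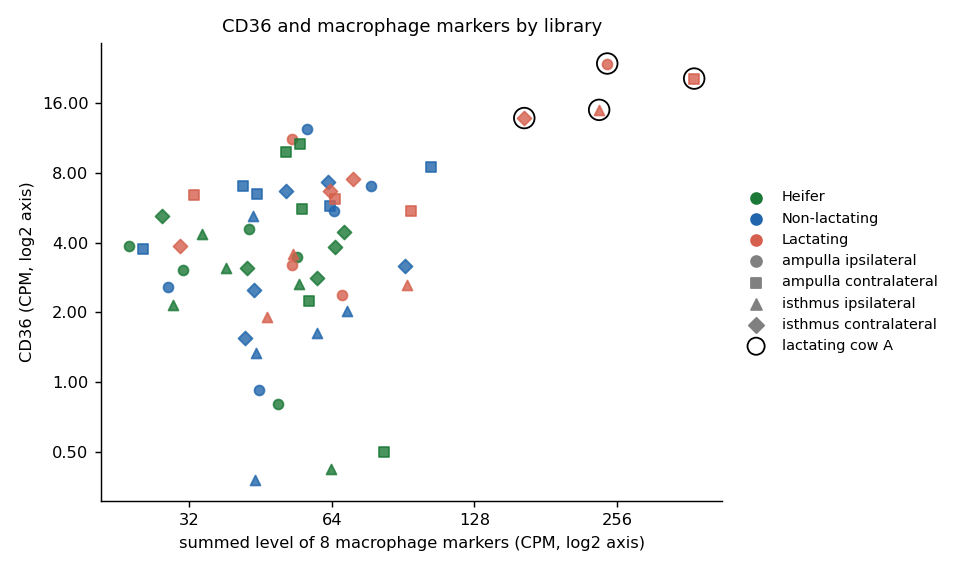
CD36 level against the summed level of 8 macrophage markers, both in CPM on log2 axes, in the 56 libraries, with colour for the metabolic group, shape for the tissue and a ring around the 4 libraries of lactating cow A. The ringed libraries have the highest macrophage sums, 163.1 to 372.5 CPM, and CD36 levels of 13.8 to 23.7 CPM.

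Set against all genes, 2 of the 4 testable genes, FABP3 and DBI, were called between the sides of the isthmus in each metabolic group. In the same comparisons 10% of all genes tested were called in heifers, 5.11% in non-lactating cows and 0.187% in lactating cows. In the ampulla 0 of the 3 testable genes was called in any group, where 0% of genes were called in heifers (with an unadjusted p under 0.05 for 1253 genes), 0.0947% in non-lactating cows and 0% in lactating cows (594 genes at an unadjusted p under 0.05). Over all 3 groups FABP3 and DBI were called between the sides of the isthmus, beside 28.4% of all genes. In the ampulla DBI was called, beside 4.99% of all genes, and the FABP3 call with its 20 contralateral counts is not counted here. Between the regions FABP3, FABP5 and DBI were called on the ipsilateral side, beside 50.3% of all genes. On the contralateral side FABP5 was called, beside 43.5%. The contralateral FABP3 call rests on the same 20 ampulla counts and is not counted here either. The genes were selected with these contrasts in view, so the shares are given beside the counts as a description.

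**Figure D4:**
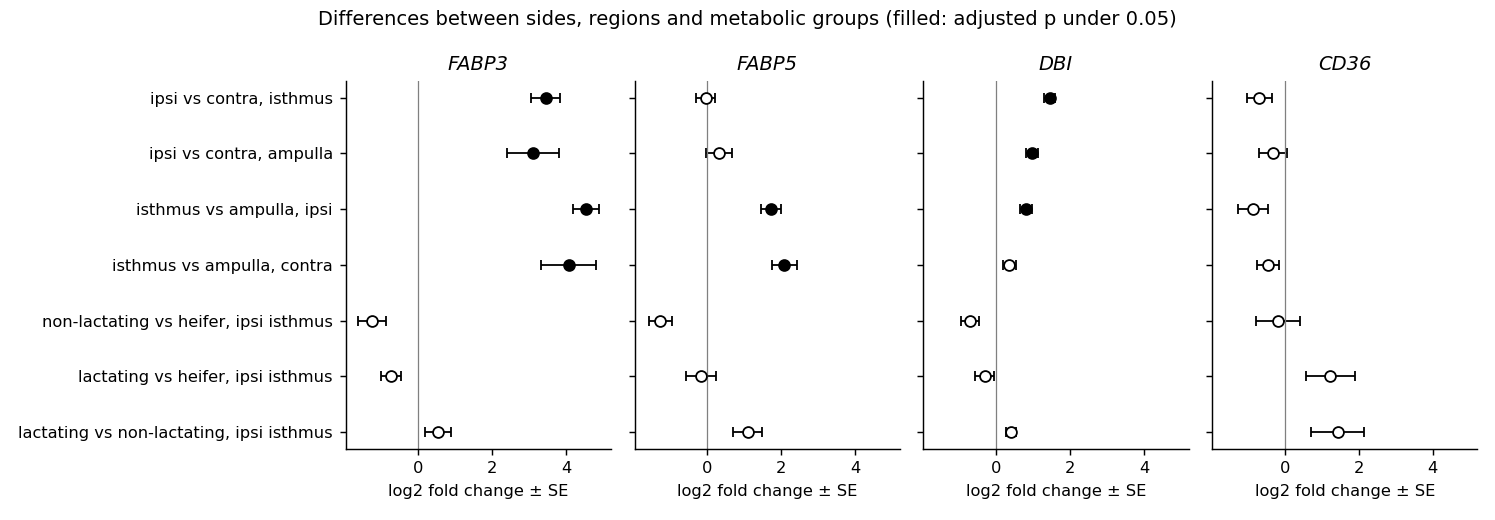
Log2 fold change ± SE of FABP3, FABP5, DBI and CD36 between the sides and between the regions over all groups, and between metabolic groups in the ipsilateral isthmus. Filled points have an adjusted p under 0.05: FABP3 in all 4 side and region comparisons, DBI in 3, FABP5 in the 2 between regions, and no gene between metabolic groups.

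The side effect was also compared between regions and between metabolic groups. The side effect of DBI was larger in the isthmus than in the ampulla by 0.46 ± 0.238 on the log2 scale (SE), which was not called (adjusted p = 0.279, edgeR's quasi-likelihood test). Without the library of heifer C this difference was 0.62 (adjusted p = 0.0848), and without the 4 mismatched libraries 0.42 (adjusted p = 0.388). For FABP5 it was -0.32 ± 0.45 (adjusted p = 0.774), and for CD36 -0.39 ± 0.536 (adjusted p = 0.77), and without the mismatched libraries these were -0.26 and -0.35 (adjusted p = 0.846 and 0.823). For FABP3 the fitted difference was 0.33 (adjusted p = 0.997). Its SE of 8.23 was derived from a very small test statistic, so it does not measure the precision of this difference. In the separate fits the side effect of FABP3 was 3.45 ± 0.393 in the isthmus and 3.10 ± 0.709 in the ampulla (SE). The ampulla value rests on 20 contralateral counts. Thus 0 of 4 genes were called (lowest unadjusted p 0.0562, DBI), where 4.95% of all genes were.

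Between metabolic groups the side effect of DBI in the isthmus differed by 0.02 ± 0.365 for non-lactating cows minus heifers, 0.00277 ± 0.362 for lactating cows minus heifers and -0.02 ± 0.389 for lactating minus non-lactating cows (SE, log2 scale). The fitted side effect of FABP3 exceeded that in heifers by 1.501 ± 0.932 in non-lactating and by 1.54 ± 0.928 in lactating cows. Without the contralateral library of heifer C these differences of FABP3 were 0.15 ± 0.762 and 0.18 ± 0.79, and those of DBI were -0.42 ± 0.304 and -0.44 ± 0.315. Neither gene was called in the joint test over the 3 groups (unadjusted p = 0.998 for DBI and 0.162 for FABP3, both adjusted p = 1, edgeR's quasi-likelihood test). In this test 0 of 4 genes and 0% of all genes were called in the isthmus (308 genes at an unadjusted p under 0.05), and 0 of 4 and 0% in the ampulla (176 genes at an unadjusted p under 0.05).

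No member was called between metabolic groups. In the ipsilateral isthmus, where FABP3 and DBI were highest, heifers had the highest mean FABP3, at 79.3 ± 28.3 CPM (SD, n = 5), against 46.8 ± 8.91 CPM in lactating cows (SD, n = 4) and 32.4 ± 19.6 CPM in non-lactating cows (SD, n = 5). The ranges of all 3 groups overlapped. The log2 fold change of FABP3 was -1.26 ± 0.38 for non-lactating cows against heifers (SE, adjusted p = 0.226, edgeR's quasi-likelihood test), -0.74 ± 0.278 for lactating cows against heifers (adjusted p = 0.411) and 0.53 ± 0.363 for lactating against non-lactating cows (adjusted p = 0.871).

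FABP5 gave the lowest adjusted p of the 4 genes in these comparisons. Non-lactating cows A to E had 10.47, 9.46, 13.04, 4.58 and 12.3 CPM in the ipsilateral isthmus, and heifers A to E had 25.9, 13.4, 19.3, 41.9 and 20.99 CPM, so the groups did not overlap. The log2 fold change was -1.27 ± 0.319 (SE, unadjusted p = 0.00155, adjusted p = 0.168, edgeR's quasi-likelihood test), and DESeq2's Wald test called it (adjusted p = 0.0122) together with FABP3 (adjusted p = 0.0438). That DESeq2 fit called 230 of 13703 genes, and in edgeR's test 1619 of the 13703 had an unadjusted p under 0.05. DBI was at -0.71 ± 0.237 in the same comparison (adjusted p = 0.266), and CD36 at -0.20 ± 0.598 (adjusted p = 0.944). For lactating against non-lactating cows FABP5 was at 1.09 ± 0.403 (adjusted p = 0.798, edgeR's quasi-likelihood test) and DBI at 0.41 ± 0.134 (adjusted p = 0.778). DBI did not overlap there, at 57.2 to 71.2 CPM against 39.9 to 55.0 CPM. For lactating cows against heifers FABP5 was at -0.18 ± 0.41 (adjusted p = 0.908) and DBI at -0.31 ± 0.257 (adjusted p = 0.705).

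Over the 6 comparisons of metabolic groups on the ipsilateral side 0 members were called, beside 0.0073% of all genes for non-lactating cows against heifers in the isthmus and 0% in each of the other 5. On the contralateral side 0 members and 0% of all genes were called in all 6. At an unadjusted p under 0.05 these comparisons held 497 to 1619 genes. In the contralateral isthmus FABP3 was at -2.72 ± 0.889 for non-lactating cows against heifers (SE, adjusted p = 0.476) and at -2.25 ± 0.888 for lactating cows against heifers (adjusted p = 0.414), where the heifer mean of 12.1 ± 15.6 CPM (SD, n = 5) holds the 39.7 CPM of heifer C. Without that library the values were -1.43 (adjusted p = 0.781) and -0.96 (adjusted p = 0.72). CD36 was at 1.07 ± 0.369 for lactating cows against heifers in the contralateral isthmus (adjusted p = 0.393) and at 1.71 ± 0.626 in the ipsilateral ampulla (adjusted p = 0.562). Without lactating cow A these values were 0.66 (adjusted p = 0.535) and 0.84 (adjusted p = 0.995), and the ampulla value was 2.08 without the 4 mismatched libraries (adjusted p = 0.441).

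The genes whose log2 CPM ran most closely with each member over the 56 libraries, among 10615 or 10616 genes with a mean log2 CPM above 3, were taken as a description of its pattern. The libraries share animals and tissues, so these correlations carry the differences between tissues. For FABP3 they were CAMK2B (r = 0.92), a calcium and calmodulin dependent kinase subunit, GM2A (r = 0.919), the lysosomal activator of ganglioside breakdown, and OGDH (r = 0.9), a subunit of the 2-oxoglutarate dehydrogenase of the citric acid cycle. The median of CAMK2B was 408.6 CPM in the ipsilateral isthmus and 41.5 CPM in the contralateral isthmus, and that of GM2A was 549.0 and 141.8 CPM.

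For DBI the closest genes were MIF (r = 0.898), a cytokine, ACADSB (r = 0.844), a mitochondrial acyl-CoA dehydrogenase for short and branched chains, and CTTN (r = 0.836), an actin binding protein. MIF had medians of 381.9 CPM in the ipsilateral and 163.6 CPM in the contralateral isthmus, and 200.9 and 128.3 CPM in the ampulla in the same order. For FABP5 they were MAPKAPK5 (r = 0.807), PDXK (r = 0.802), the pyridoxal kinase, and NIPA1 (r = 0.793). For CD36 the values were lower, with RBM43 (r = 0.658), TMEM123 (r = 0.65) and NAIP (r = 0.62). Among the members themselves FABP3 and DBI correlated at r = 0.797 over the 56 libraries. Within the contralateral isthmus, centred on the metabolic group, they correlated at r = 0.616 over 14 animals (permutation p = 0.0459, adjusted p = 0.335) and rho = 0.613 (permutation p = 0.0331, adjusted p = 0.496), with r = 0.476 without the 2 animals farthest from the median of FABP3. Within the ipsilateral isthmus r was 0.448 (permutation p = 0.125, adjusted p = 0.442) and rho 0.31 (permutation p = 0.32, adjusted p = 0.533), with r = 0.0559 without the 2 farthest animals.

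The 6 lists of genes around these proteins were followed in the same fits. Among 8 tested genes of other lipid binding proteins, 2 were higher on the ipsilateral side of the isthmus and 0 lower, with a median log2 fold change of 0.14 beside -0.01 over all genes. SCP2, the sterol carrier protein that binds sterols and acyl-CoA, had a median of 941.7 CPM in the ipsilateral isthmus, 364.1 CPM in the contralateral isthmus, 237.9 CPM in the ipsilateral ampulla and 166.1 CPM in the contralateral ampulla. Its log2 fold change was 1.32 ± 0.161 between the sides of the isthmus (SE, adjusted p = 1.01e-06), 0.55 ± 0.122 between those of the ampulla (adjusted p = 0.008) and 1.89 ± 0.123 between the regions ipsilaterally (adjusted p = 2.74e-13, edgeR's quasi-likelihood test). The retinoic acid carrier CRABP2 was lower in the isthmus, at -1.67 ± 0.378 ipsilaterally and -1.68 ± 0.437 contralaterally. Its medians there, 1.27 CPM ipsilaterally and 0.943 CPM contralaterally, were near the floor.

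Of 13 tested genes for fatty acid uptake and activation, 5 were higher and 3 lower on the ipsilateral side of the isthmus, and between the regions ipsilaterally 9 were higher and 3 lower in the isthmus (92.3% called, beside 50.3% of all genes). ACSL4, the acyl-CoA synthetase with a preference for arachidonic acid, rose by 1.06 ± 0.136 and SLC27A3 by 1.19 ± 0.306 on the ipsilateral side of the isthmus (log2 ± SE), while the transporters SLC27A5 and SLC27A2 were lower, at -0.52 ± 0.138 and -0.50 ± 0.19. SLC27A2 and SLC27A6 had the largest differences between the regions, at 3.90 ± 0.277 and 4.03 ± 0.677 ipsilaterally. In the ipsilateral ampulla their medians of 1.14 and 0 CPM were near or under the floor. SLC27A6 was near it in the ipsilateral isthmus too (median 1.87 CPM), so the size of its fold is poorly fixed. CAV1, the caveolar coat protein, was the 1 gene of this list called between the sides of the ampulla, at 1.64 ± 0.285.

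In the lipid droplet and lipolysis list, 3 of 13 tested genes were higher and 0 lower on the ipsilateral side of the isthmus, among them the droplet coat protein PLIN3 (0.99 ± 0.16, log2 ± SE) and the hormone-sensitive lipase LIPE (0.81 ± 0.301). Between the regions ipsilaterally 5 of 14 were higher and 2 lower in the isthmus, with PLIN4 at 3.08 ± 0.365 and the secreted lipoprotein lipase LPL at -2.26 ± 0.285. PLIN4 was near the floor in the ipsilateral ampulla (median 0.454 CPM). Among the PPAR and RXR receptors with their classical targets, 1 of 10 was higher on the ipsilateral side of the isthmus, the receptor PPARD (0.41 ± 0.078), and 1 was lower, PDK4 (-1.10 ± 0.256), the kinase that turns pyruvate dehydrogenase off. Between the regions ipsilaterally 6 of the 10 were higher in the isthmus and 2 lower.

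Of 15 genes for the carnitine shuttle and mitochondrial beta-oxidation, 5 were higher and 1 lower on the ipsilateral side of the isthmus, the enoyl-CoA enzymes ECI1 (0.55 ± 0.178) and ECHS1 (0.45 ± 0.0884) being the highest and the carnitine transporter SLC22A5 (-0.52 ± 0.108) the lower gene. Of 11 genes for fatty acid synthesis, 4 were higher and 3 lower, with the elongases ELOVL6 at 0.93 ± 0.117 and ELOVL7 at -1.01 ± 0.237 and the acetyl-CoA carboxylase ACACB at -1.05 ± 0.323. ACACB was near the floor, with medians of 0.763 CPM ipsilaterally and 2.03 CPM contralaterally. Between the regions ipsilaterally, 4 of the 8 other lipid binding genes, 6 of the 15 oxidation genes and 6 of the 11 synthesis genes were higher in the isthmus, and 1, 4 and 1 were lower. In these 6 lists the shares called between the sides of the isthmus were 20 to 63.6%. The share over all genes was 28.4%. Between the regions ipsilaterally the shares were 50 to 92.3%, beside 50.3% over all genes. Nothing is read from these shares about the lists.

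**Figure D5:**
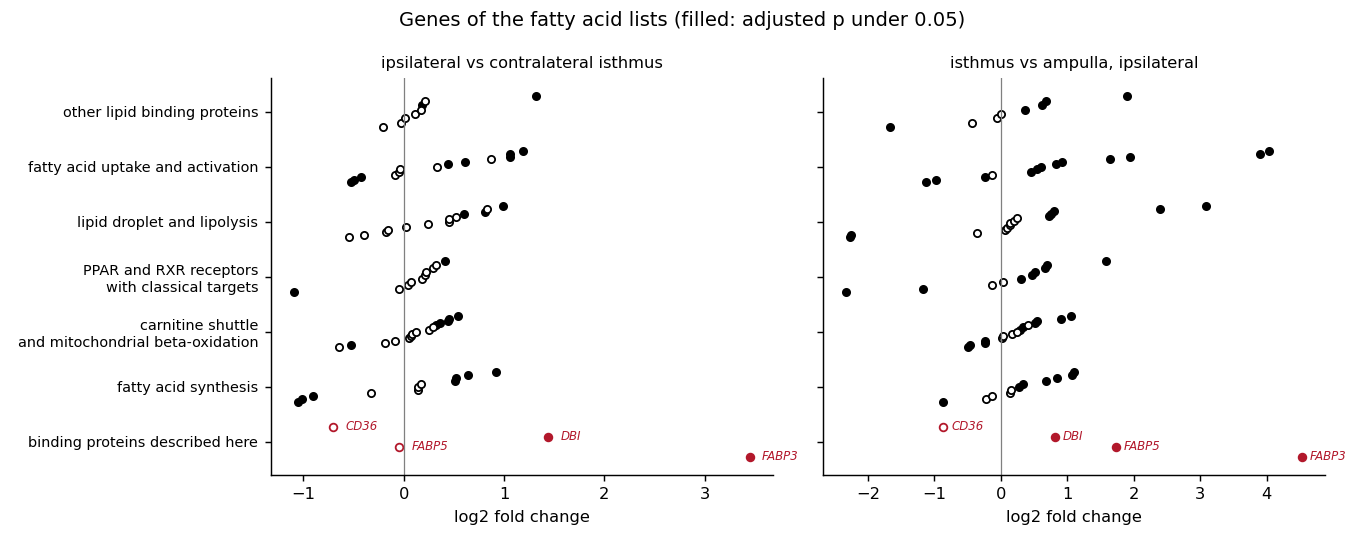
Log2 fold change of each tested gene of the 6 lists and of FABP3, FABP5, DBI and CD36 (red), over all metabolic groups, between the sides of the isthmus (left) and between the regions on the ipsilateral side (right), filled where the adjusted p is under 0.05. FABP3, at 3.45 and 4.53, lies to the right of every gene of the lists in both panels.

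Markers of several other cell types differed between the regions. The summed level of the 10 endothelial markers in the table was 14.1 to 58.3 CPM in the ipsilateral and 17.8 to 124.7 CPM in the contralateral isthmus, and 99.8 to 384.7 and 180.4 to 417.5 CPM in the ampulla. KDR, at 2.35 to 340 CPM, made up much of it, and CLDN5, TIE1, ESAM and ROBO4 were at 0 in 55, 42, 45 and 39 of the 56 libraries. Of 8 ciliated cell markers, 7 were lower in the isthmus on the ipsilateral and 8 on the contralateral side, as 4 of 5 tested endothelial markers were on each, where 50.3% and 43.5% of all genes were called in either direction. Of 5 epithelial markers, 3 were higher on the ipsilateral side of the isthmus (28.4% of all genes called) and 0 in the ampulla, and all 5 were higher in the isthmus between the regions ipsilaterally. The sums of the 5 smooth muscle markers had medians of 54.1 CPM in the ipsilateral and 38.9 CPM in the contralateral isthmus against 16.5 and 15.4 CPM in the ampulla (ipsilateral first). The tissues thus had the same order as for FABP3, whose medians in the isthmus were 47.7 and 2.55 CPM (ipsilateral first). The relation of these sums to FABP3 within a tissue was not tested. Of the 3 smooth muscle markers tested, 1 was higher and 1 lower in the isthmus on each side, 0 were called between the sides in either region, and CNN1 and TAGLN were at 0 in 44 and 45 libraries. Skeletal and heart muscle markers, which accompany FABP3 in muscle, were at 26.8 to 109.1 CPM in sum, nearly all of it MYH7, with MYL2 at 0 in 53 libraries and CKM at 0 in 37, and the median sums were 40.9 and 44.0 CPM in the isthmus and 71.7 and 74.5 CPM in the ampulla (ipsilateral first). The 4 glia markers differed between the sides too, with median sums of 563.5 and 369.8 CPM in the ampulla and 314 and 248.4 CPM in the isthmus (ipsilateral first). S100B, at 86.1 to 698 CPM, made up nearly all of these sums. Of the glia markers tested, 1 of 1 was higher on the ipsilateral side of the isthmus and 1 of 2 in the ampulla (4.99% of all genes called). Between the regions 1 of 1 was lower in the isthmus ipsilaterally and 2 of 2 contralaterally. The part of cell composition in the differences of FABP3, FABP5, DBI and CD36 was not tested.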

How the data were processed

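RNA of scraped oviduct epithelium was sequenced from 14 animals, 56 libraries. The authors used TopHat2 (version 2.0.13) for alignment to Btau_4.6.1 and deposited whole-number counts per gene symbol, made by HTSeq (version 0.6.1) by strand, neither normalized nor filtered. Reads that align to several places were not counted, so genes with near-identical copies, which FABP3, FABP5 and DBI may have, are uncertain in level. The 5 summary lines were left out. Genes held 8.66 to 13.7% of counted alignments.

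R (4.3.3), edgeR (4.0.16) and DESeq2 (1.42.0) were used. Counts were normalized by TMM, filtered by filterByExpr (minimum count 10) on the libraries of each fit, and tested with edgeR's quasi-likelihood F test, adjusted by Benjamini-Hochberg over all genes tested. Log2 CPM used a prior count of 2, and a count of 3 was the floor. The 25 comparisons used 2 conditions each, or all groups with metabolic group as a term, without an animal term. Permutation tests of 15 relations over animals drew 100000 two-sided permutations within metabolic groups. The test was checked on simulated counts. Alternatives were RLE size factors, no filter, DESeq2, robust dispersions, 1 fit per region, the mismatched libraries left out, the replicate block and each animal left out. Leaving out the library of heifer C was chosen after seeing the data.

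The genes and lists were chosen with earlier results of these data known. Named genes are all 7 members, the 3 genes that correlate most with each member tested in the isthmus, and up to 2 called genes per direction, list and comparison over all groups, of which some are described. Groups are those of the labels, matched through the column names. These names also carry an animal number, which pairs the libraries of 1 animal, and animals are lettered within their group by it. Same-numbered libraries of the 2 sides deviated from their condition means together at a median r of 0.389 (-0.0429 to 0.553) in the isthmus and 0.22 (-0.00595 to 0.662) in the ampulla, over 10616 genes and 14 pairs each. The library identities were read from 200 genes that differ between animals. No sequence or coordinates are given, since no genome of the build was used here.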

Additional observations from a re-analysis of the deposited data

Results flagged for a closer look

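Within a condition, the highest or lowest library was set against the spread of the others by Dixon's test for the genes with counts. Of 48 groups of 4 or 5 libraries, 6 held a library past the critical value, and chance flags about 1 in 20 groups. In the contralateral isthmus of heifers, the library of heifer C was far above the other 4 for FABP3 (39.7 CPM) and for DBI (59.0 CPM), and its overall profile also lay between the sides. In the contralateral ampulla, where FABP3 is close to the floor, the 0.215 CPM of non-lactating cow D is 1 count among libraries at 0, and the 2.42 CPM of lactating cow A is 14 counts among libraries at 0. CD36 of lactating cow A stood apart in the contralateral ampulla (20.4 CPM) and in the ipsilateral isthmus (14.9 CPM). The causes were not tested.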

How the results depend on the processing

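Over 391 repeats of the 25 comparisons under other settings, the number of called members stayed within 1.5 times the value given in 377 and moved in 14. Of these repeats, 176 of the 177 between metabolic groups and all 61 of side effects by region or group called 0 members. The main fits of metabolic groups called 0 to 0.0073% of all genes, so their share of the 377 says little about stability. Between the sides of the isthmus in heifers 1 member was called with robust dispersions (FABP3 at an adjusted p of 0.0536), where 1376 of 13548 genes were called. With each animal left out 0 to 2 members were called, in fits that called 179 to 1334 genes. In lactating cows 0 or 1 member was called with each animal left out, in fits with fewer libraries that called 0 to 11 genes in all. In the ampulla of non-lactating cows DBI was called, 1 member, with DESeq2's Wald test (134 of 13726 genes called) and with the replicate block (148 of 13726). It was also called with the replicate block without the 4 mismatched libraries (57 of 14148). In lactating cows 1 member, DBI, was called with DESeq2 (14 of 13938). DESeq2 called 2 members, FABP3 and FABP5, for non-lactating cows against heifers in the ipsilateral isthmus, where it called 230 of 13703 genes. Between the sides of the ampulla over all groups it called 1, DBI, among 1071 of 15270 genes, and gave FABP3 no adjusted p. The sign of CD36 between lactating and non-lactating cows in the contralateral ampulla turned without lactating cow A, from 0.61 to -0.061, and the range with each animal left out was -0.061 to 0.81. With the paired design, that is the replicate block, the numbers of called members were otherwise unchanged, except that CD36 was added between the sides of the isthmus (3 members) and between the regions ipsilaterally (4 members). In the 61 repeats of the tests of side effects by region or group, 0 members were called. Depth limits FABP3 in the contralateral ampulla and FABP4, FABP6 and FABP7, which lie near or under the floor of 3 counts.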
